A study of Mus musculus with 8 samples.

Results

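The replacement histone variant genes are a group of 8 genes out of the 23432 listed in every library: H2afy and H2afy2 (macroH2A1 and macroH2A2), H2afz and H2afv (both H2A.Z), H2afx (H2AX), H3f3a and H3f3b (both H3.3) and H1f0 (the linker histone H1.0). They were chosen by symbol, with the low level of H2afy2 in MOF cKO already known. All 8 passed the filter on low counts in every comparison. Polyadenylated RNA was sequenced from 8 mouse libraries in 4 groups of 2. At the embryonic stage E16.5, K14-H2BGFP+ epithelial cells were sorted by FACS from the backskin of controls and of MOF cKO embryos (genotype MOFfl/fl/K14Cre), which lack the histone H4 lysine 16 acetyltransferase MOF in the epithelium. After birth, at P0.5, Dispase was used to free the epidermal sheet, which was laid on TRIzol, from controls and from Kansl1 cKO pups (genotype Kansl1fl/fl/K14Cre), in which exon 3 of Kansl1, a subunit of the NSL complex of MOF, is floxed. Controls were wildtype or heterozygous littermates on a mixed C57Bl/6J and CD-1 background, and both sexes were used. The Krt14-Cre transgene deletes in epithelial cells only, so any dermal or immune cell in a library keeps the gene, and mosaic deletion was described for an embryo of this line.

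Canonical histones are made from clustered genes during DNA replication, and most of their mRNAs carry no poly(A) tail. Most replacement variants are made from single genes with polyadenylated mRNAs, outside as well as inside S phase, and take the place of canonical histones in the nucleosome. Since polyadenylated RNA was sequenced, the levels of all members, H2afx included, are of polyadenylated transcripts only. MacroH2A carries a large additional domain and is enriched on the inactive X chromosome and at silenced genes. H2A.Z is placed at promoters by the p400 and SRCAP complexes, H3.3 is deposited by HIRA or by DAXX with ATRX, H2AX is phosphorylated beside DNA breaks, and H1.0 accumulates in cells that stop dividing. In epidermis, basal keratinocytes divide and suprabasal keratinocytes leave the cell cycle and differentiate.

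Because macroH2A, H2A.Z and H3.3 are each encoded by a pair of paralogs, the beginnings of the coding sequences of these 3 pairs are shown first, to let a reader judge whether reads of the paralogs could be mixed. Each line gives the first 120 coding bases, 5′ to 3′ from the start codon, taken from the GENCODE M21 transcripts, and capitals mark the bases at which the paralogs of a pair differ.
H2afy2: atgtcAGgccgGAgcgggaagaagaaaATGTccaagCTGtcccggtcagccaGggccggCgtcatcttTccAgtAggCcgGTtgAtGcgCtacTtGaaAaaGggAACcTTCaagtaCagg
H2afy: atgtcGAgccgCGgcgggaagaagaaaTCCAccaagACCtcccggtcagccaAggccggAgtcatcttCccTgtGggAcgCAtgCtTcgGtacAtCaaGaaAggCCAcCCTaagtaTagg
H2afv: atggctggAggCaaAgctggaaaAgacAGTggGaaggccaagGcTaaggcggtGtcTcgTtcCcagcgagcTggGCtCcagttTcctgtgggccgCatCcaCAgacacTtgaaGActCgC
H2afz: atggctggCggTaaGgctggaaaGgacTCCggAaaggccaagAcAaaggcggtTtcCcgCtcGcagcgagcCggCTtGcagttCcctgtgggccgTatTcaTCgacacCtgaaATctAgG
H3f3b: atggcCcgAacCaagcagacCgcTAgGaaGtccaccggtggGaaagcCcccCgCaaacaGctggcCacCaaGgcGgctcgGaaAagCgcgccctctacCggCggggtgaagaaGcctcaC
H3f3a: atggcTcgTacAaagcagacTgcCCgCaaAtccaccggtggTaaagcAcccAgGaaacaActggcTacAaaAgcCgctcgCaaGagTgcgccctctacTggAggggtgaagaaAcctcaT

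Over these 120 bases the H3.3 pair differed at 24 positions, 22 of them at the last base of a codon. The H2A.Z pair differed at 28 positions, 20 of them at the last base of a codon, and the macroH2A pair at 33 positions, with 18 at the last base. Over the whole coding sequence, identity in a global alignment was 70.5% for the macroH2A pair, 79.4% for the H2A.Z pair and 76.9% for the H3.3 pair. The longest run of identical coding bases was 16 for macroH2A, 14 for H2A.Z and 23 for H3.3, all much shorter than the 150-base reads. No read-length stretch of H2afv or H2afx occurred in a transcript of another gene on either strand. Such stretches made up 0.0978% of H3f3b, 0.735% of H1f0, 2.98% of H2afy, 4.24% of H2afy2, 16.3% of H3f3a and 22.7% of H2afz. For H3f3a and H2afz the other genes include H3f3a-ps2, H3f3c and Gm8203, so the counts of these 2 genes are less certain than the others. The shared part of H2afy2 is its 3′ end, which overlaps the neighbouring gene Aifm2 on the opposite strand, and whether the counting used strand is not given in the sources used here.

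In the GENCODE M21 annotation of mm10, H2afy2 lies on the minus strand of chromosome 10 from 61738665 to 61784147, and H2afy on the minus strand of chromosome 13 from 56073619 to 56136361. H2afz lies on chromosome 3 from 137864487 to 137866922 (plus strand), H2afv on chromosome 11 from 6427229 to 6444443 (minus strand) and H2afx on chromosome 9 from 44334694 to 44336077 (plus strand). H3f3a is on chromosome 1 from 180800832 to 180813943 (minus strand), H3f3b on chromosome 11 from 116021912 to 116027962 (minus strand) and H1f0 on chromosome 15 from 79028450 to 79030504 (plus strand).

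Counts on genes ran from 22484018 to 27561688 in the E16.5 libraries and from 9108709 to 19774643 in the P0.5 libraries. Levels are given as CPM, counts scaled to a common library size with edgeR's TMM factors over all 8 libraries, in which 1 count stood for 0.0299 to 0.122 CPM. The deleted genes check the labels only weakly, since whole-gene counts include transcripts without the deleted exon. Kat8, which encodes MOF, was at 13.3 and 13.6 CPM in E16.5 control and 11.5 and 12.8 CPM in MOF cKO, and Kansl1 was at 43.4 and 51.8 CPM in P0.5 control and 34.6 and 33.4 CPM in Kansl1 cKO. Basal keratinocyte markers (Krt5, Krt14, Trp63, Itga6, Itgb4 and Col17a1) were present in every library, with summed levels of 27470 to 33950 CPM at E16.5 and 16340 to 18610 CPM at P0.5. By Xist and the Y-linked gene Ddx3y, E16.5 control replicate 1, P0.5 control replicate 1 and both Kansl1 cKO libraries were of the Xist type, with 408 to 1394 CPM of Xist, and the other 4 had 1.32 to 11.1 CPM. Sex was therefore not matched within the genotypes, and its part in the levels of the macroH2A genes was not tested.

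MOF cKO libraries held less H2afy2, H2afv and H1f0 than control libraries, and H2afy2 differed most among the 8 genes. H2afy2 was at 65.5 and 79.9 CPM in E16.5 control and at 16.2 and 18.0 CPM in MOF cKO, from 2188 and 2392 counts and from 350 and 462 counts. The higher MOF cKO library was far below the lower control library, and the fitted difference was -2.08 on the log2 scale (standard error, SE, 0.147), a 4.24-fold lower level. Of all 13956 genes tested, 3.99% had a fold change as low or lower. In these bulk libraries, fewer cells that express a gene and less of its RNA per cell cannot be told apart. Since the members were chosen with this comparison known, its values are a description and carry no test.

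H2afy, the other macroH2A gene, was at 156 and 168 CPM in control and 123 and 126 CPM in MOF cKO, or -0.38 on the log2 scale (SE 0.101). The groups did not overlap, but the difference was under 1.5-fold. H1f0 was at 444.7 and 437.2 CPM in control and 237 and 251 CPM in MOF cKO, or -0.85 on the log2 scale (SE 0.1). The linker histone was thus 1.81-fold lower with replicates that lay close together in both groups. H2afv was at 93.1 and 90.5 CPM in control and 58.5 and 55.1 CPM in MOF cKO, or -0.69 on the log2 scale (SE 0.11).

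For its H2A.Z paralog H2afz the MOF cKO libraries lay above the controls, with 543 and 541 CPM in control and 694 and 673 CPM in MOF cKO, or 0.33 on the log2 scale (SE 0.0955). H2afx, whose protein marks DNA breaks, was at 157 and 135 CPM in control and 197 and 170 CPM in MOF cKO, or 0.33 on the log2 scale (SE 0.127). H3f3b was at 1106 and 1124 CPM in control and 1370 and 1534 CPM in MOF cKO, or 0.38 on the log2 scale (SE 0.103). H3f3a was at 831 and 841 CPM in control and 999.6 and 904 CPM in MOF cKO, or 0.19 on the log2 scale (SE 0.101). None of these 4 reached 1.5-fold.

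At the thresholds used throughout, an adjusted p of at most 0.01 in edgeR's quasi-likelihood test and a fold change over 1.5, 3 of the 8 members were called lower (H2afy2, H2afv and H1f0) and 0 higher. Among all genes tested, 9.59% were called lower and 10.0% higher. Since this comparison chose the members, the count describes them and nothing is read from it. For all 8 members the MOF cKO libraries did not overlap the controls, 4 on the lower and 4 on the higher side, where 37.7% and 34.9% of all genes did the same. Scaling by library size alone shifted all genes, their median going from -0.02 to -0.32 on the log2 scale, changed the calls over all genes from 1338 lower and 1395 higher to 2743 and 769, added H2afy to the lower members, turned H3f3a to -0.12 and brought H2afz to 0.03, H2afx to 0.02 and H3f3b to 0.08, so the higher levels of these 4 genes depend on the scaling. Without E16.5 control replicate 1, H2afv was no longer called (log2 difference -0.67), leaving 2 members.

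**Figure D1:**
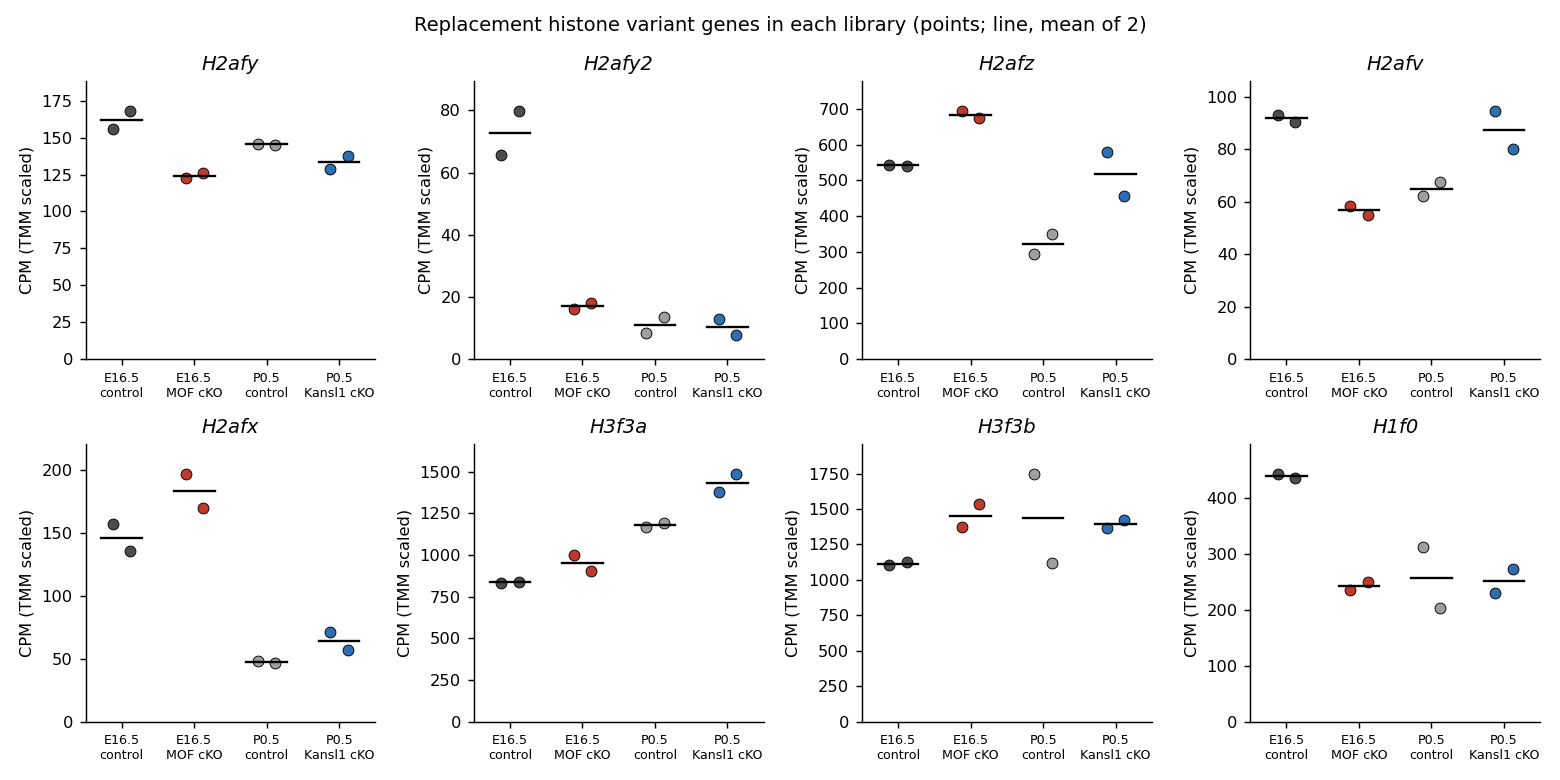
Level of each member in CPM (y axis, linear from 0, TMM scaled over 8 libraries) in the 2 libraries of each of 4 groups (x axis); points are libraries and lines are means. H2afy2 was at 65.5 and 79.9 CPM in E16.5 control and at most 18.0 CPM in the other 6 libraries, H2afx was lower in all 4 P0.5 libraries than in all 4 E16.5 libraries, and H3f3a was higher in all 4 P0.5 libraries.

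Kansl1 cKO gave 0 called members of 8, and 0% of the 13031 genes tested were called in either direction by edgeR, the lowest adjusted p being 0.11. At an unadjusted p under 0.05 in the same test, 15.7% of genes differed, among them H2afz and H2afv of the members. DESeq2 called 55 genes lower and 35 higher, and 0 of them were members. H2afz was at 294 and 351 CPM in P0.5 control and 579.9 and 456 CPM in Kansl1 cKO, or 0.65 on the log2 scale (SE 0.195, adjusted p = 0.228, edgeR). Both Kansl1 cKO libraries lay above both controls, as for 26.0% of all genes, but the difference did not pass the test.

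The Kansl1 cKO libraries also lay above the controls for H2afv, H2afx and H3f3a. H2afv was at 62.4 and 67.7 CPM in control and 94.7 and 80.3 CPM in Kansl1 cKO (log2 difference 0.40, SE 0.162, adjusted p = 0.311, edgeR), and its sign was opposite to that in MOF cKO. H2afx was at 48.3 and 47.0 CPM in control and 71.1 and 57.1 CPM in Kansl1 cKO (log2 difference 0.40, SE 0.17, adjusted p = 0.326, edgeR). H3f3a was at 1167 and 1190 CPM in control and 1379 and 1490 CPM in Kansl1 cKO (log2 difference 0.25, SE 0.159, adjusted p = 0.489, edgeR). In the same libraries, 8 of 10 proliferation markers lay above 0 (median 0.52 on the log2 scale), with sums of 871 and 1136 CPM in control and 1539 and 1119 CPM in Kansl1 cKO that overlapped. All 5 of 5 melanocyte markers lay above 0 (sums of 458 and 508 CPM, then 1002 and 1120 CPM), as did 8 of 10 macrophage markers, and 6 of 7 fibroblast markers lay below 0 (median -1.76; sums of 1866 and 1174 CPM, then 1018 and 807 CPM). edgeR called 0 of these markers, and their part in the members' values was not tested.

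In H2afy both Kansl1 cKO libraries lay below the controls, as in 22.7% of all genes, with 146 and 145 CPM in control and 129 and 138 CPM in Kansl1 cKO (log2 difference -0.16, SE 0.153, adjusted p = 0.659, edgeR). H2afy2 was at 8.44 and 13.6 CPM in control and 12.8 and 7.68 CPM in Kansl1 cKO (log2 difference -0.15, SE 0.341, adjusted p = 0.876, edgeR). The groups overlapped, and leaving out P0.5 control replicate 2 turned the value to 0.22. With counts of 69 to 240, H2afy2 was the least precisely measured member here. H3f3b and H1f0 overlapped as well, at -0.07 (SE 0.236) and -0.06 (SE 0.242) on the log2 scale, and both turned to 0.29 without P0.5 control replicate 1. Whether MOF cKO and Kansl1 cKO differ in their effect on a member was not tested, because stage, isolation and sequencer differ between them.

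Between the control groups, H2afy2 and H2afx were lower at P0.5 than at E16.5 and H3f3a was higher. Age, isolation (sorted cells against an epidermal sheet) and sequencer (HiSeq against NovaSeq) changed together here and cannot be told apart, and the E16.5 control libraries are also those of the MOF comparison. H2afy2 went from 72.7 ± 10.1 to 11.03 ± 3.67 CPM (SD, n = 2), or -2.58 on the log2 scale (SE 0.238), given without a test because its high level in these E16.5 controls was known. H2afx, 157 and 135 CPM at E16.5, was at 48.3 and 47.0 CPM at P0.5, or -1.50 on the log2 scale (SE 0.149, adjusted p = 0.000118, edgeR). H3f3a, 831 and 841 CPM at E16.5, was at 1167 and 1190 CPM at P0.5 (log2 difference 0.61, SE 0.153, adjusted p = 0.00965, edgeR).

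Among the 7 members other than H2afy2, 1 was called lower and 1 higher, where 17.6% of the 13859 genes tested were called lower and 22.2% higher. H2afz (log2 difference -0.63, SE 0.16, adjusted p = 0.0102), H1f0 (-0.65, SE 0.219, adjusted p = 0.0331) and H2afv (-0.38, SE 0.137, adjusted p = 0.0436) were lower without being called by edgeR. H1f0 was uneven at P0.5, with 313 and 203 CPM in the controls, and was called (-1.02) without the first of them but not (-0.37) without the second. H3f3b was at 1750 and 1117 CPM in the P0.5 controls, and its log2 difference of 0.48 (SE 0.227, adjusted p = 0.102, edgeR) was 0.11 without P0.5 control replicate 1 and 0.77, past both thresholds, without P0.5 control replicate 2. H2afy stayed near its E16.5 level, with 146 and 145 CPM (log2 difference -0.04, SE 0.137, adjusted p = 0.827, edgeR). The call of H3f3a was lost under 6 of the settings tried, among them upper-quartile scaling, library size alone and leaving out either E16.5 control library, and H2afz was called under 7, DESeq2 and the fit without P0.5 control replicate 2 among them. Library size alone moved the median of all genes to -0.47 here and the calls over all genes from 2436 lower and 3070 higher to 4340 and 2089.

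**Figure D2:**
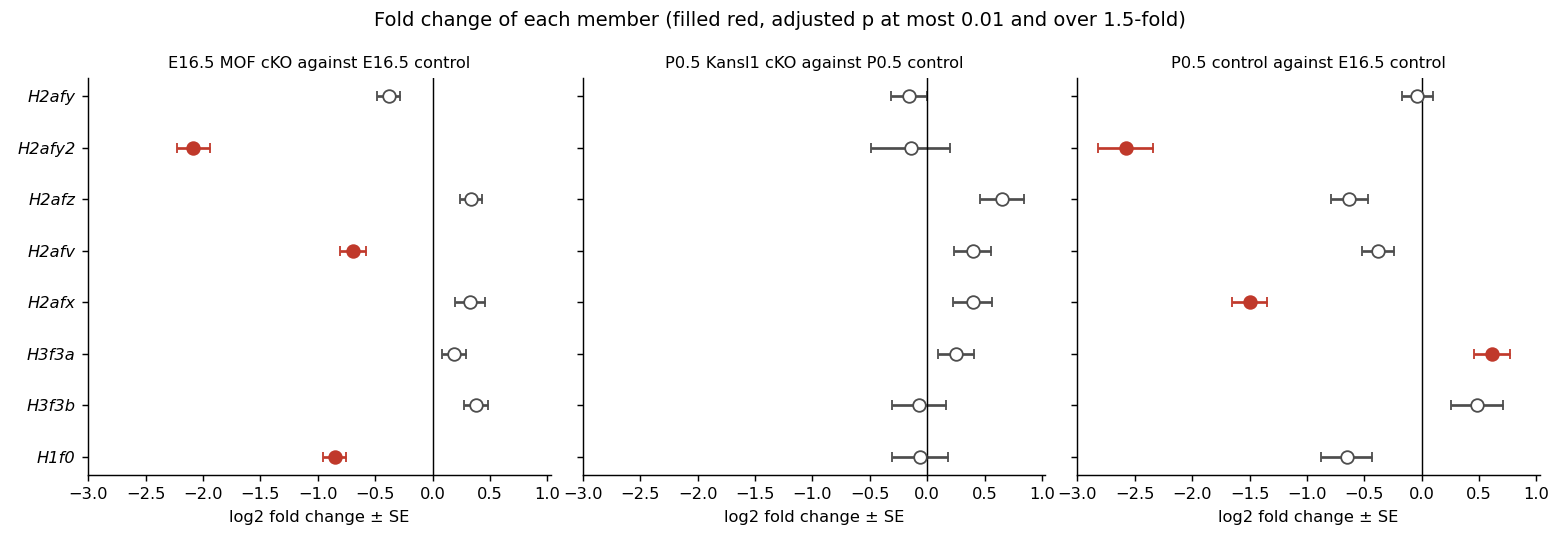
log2 fold change with its SE (x axis) of the 8 members (y axis) in the 3 comparisons, from edgeR fits of 4 libraries each; filled red points passed both thresholds, which for MOF cKO and for H2afy2 between the control groups is a description only. H2afy2 stood at -2.08 in MOF cKO, at -0.15 in Kansl1 cKO and at -2.58 between the control groups, while H3f3a stood above 0 in all 3 and fell to -0.12 in MOF cKO with library size alone.

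Levels of different genes were compared per length, as RPKM over the merged exons. H3f3b ranked first among the 8 members in all 4 groups, with 375 ± 4.37 RPKM in E16.5 control, 488 ± 38.9 in MOF cKO, 482 ± 150 in P0.5 control and 469 ± 12.7 in Kansl1 cKO (SD, n = 2). In E16.5 control H2afz followed with 305.0 ± 0.769 RPKM, then H3f3a with 239 ± 2.1, H1f0 with 215 ± 2.56, H2afx with 106 ± 11, H2afv with 56.2 ± 1.11, H2afy2 with 33.4 ± 4.66 and H2afy with 23.8 ± 1.27. The lower of the replicates of each gene lay above the higher of the next in that order for all neighbours. The order of H2afy2 and H2afy rests on their merged exon lengths, 2175 and 6809 bases, and was reversed with longest transcripts as lengths, as given below. In CPM, without a length, H2afy was the higher in E16.5 control, at 162 against 72.7. In P0.5 control H3f3a (336 ± 4.72 RPKM) stood above H2afz (182 ± 22.6), and H2afy2 (5.07 ± 1.69) stood last, below H2afy (21.4 ± 0.0447). H2afv (39.8 ± 2.28 RPKM) and H2afx (34.4 ± 0.671) were close there, and the 2 P0.5 control values of H3f3b spanned far more than in any other group.

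Within the pairs, the share of H2afy2 moved most. H2afy2 made up 56.8% and 59.8% of the macroH2A RPKM in E16.5 control, 29.3% and 31.0% in MOF cKO, 15.4% and 22.7% in P0.5 control and 23.7% and 14.9% in Kansl1 cKO. It was thus the more abundant macroH2A transcript per length in E16.5 control and the less abundant in every other group. The longest annotated transcript of H2afy retains an intron, and with longest transcripts as lengths the share in E16.5 control was 45.2%, so which gene led there depends on the length used. H2afv made up 15.6% ± 0.227 of the H2A.Z RPKM in E16.5 control, 8.29% ± 0.157 in MOF cKO, 18.0% ± 0.998 in P0.5 control and 15.6% ± 0.687 in Kansl1 cKO (SD, n = 2). H3f3b made up 61.1% ± 0.0681 of the H3.3 RPKM in E16.5 control, 64.2% ± 3.47 in MOF cKO, 58.2% ± 8.02 in P0.5 control and 53.4% ± 0.691 in Kansl1 cKO (SD, n = 2). The H3.3 share thus moved within a narrow range, and its replicates in P0.5 control spread as widely as the groups.

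**Figure D3:**
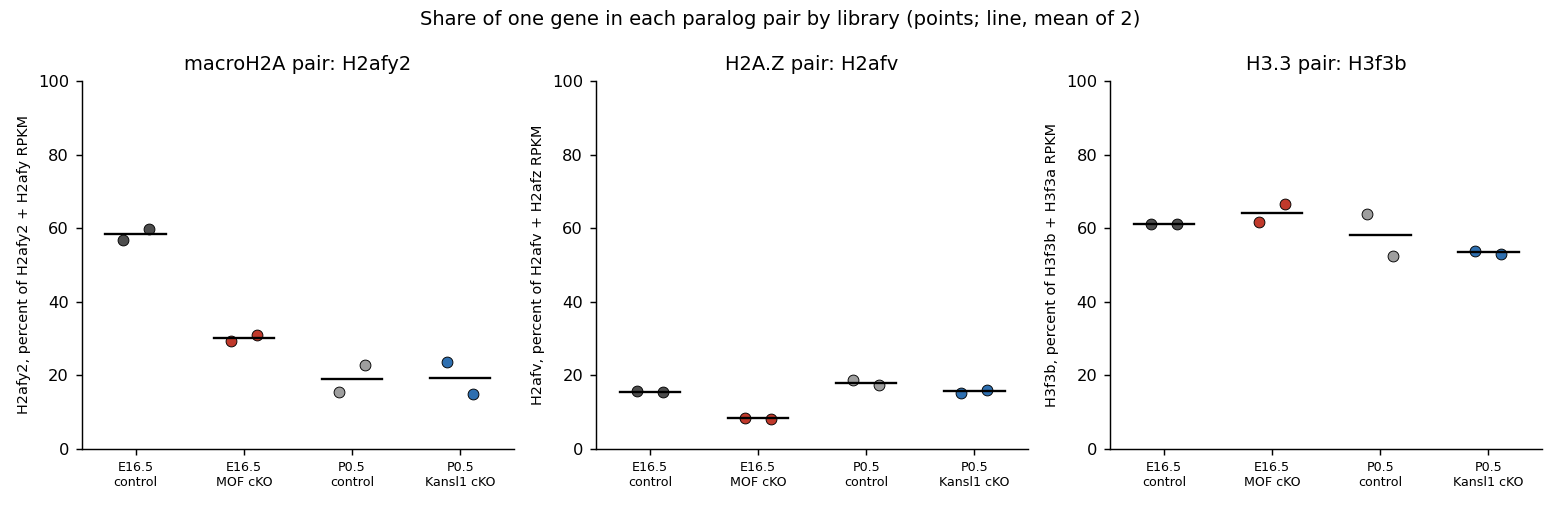
Share of H2afy2, H2afv and H3f3b in the summed RPKM of their pairs (y axis, percent) in the 2 libraries of each group (x axis); points are libraries and lines are means. With merged exons as lengths, the mean share of H2afy2 was 58.3% in E16.5 control, 30.1% in MOF cKO, 19.0% in P0.5 control and 19.3% in Kansl1 cKO. The shares were lower with longest transcripts as lengths.

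RefSeq promoter windows of GRCm38.p6 were found for 7 of the 8 members, all but H2afx. The 250 bases upstream of the start were searched on both strands for the CCAAT box, spelled CCAAT, the TATA box, spelled TATAAA, the Sp1-type GC box, spelled GGGCGG, and the core of RFX sites, spelled GTTGCC. The H2afv window is printed because H2afv was lower in MOF cKO while its paralog was not and because no annotated exon overlaps it. It spans chr11:6444444-6444693 on the minus strand and is written 5′ to 3′, with CCAAT or its reverse ATTGG and GGGCGG in capitals.
H2afv: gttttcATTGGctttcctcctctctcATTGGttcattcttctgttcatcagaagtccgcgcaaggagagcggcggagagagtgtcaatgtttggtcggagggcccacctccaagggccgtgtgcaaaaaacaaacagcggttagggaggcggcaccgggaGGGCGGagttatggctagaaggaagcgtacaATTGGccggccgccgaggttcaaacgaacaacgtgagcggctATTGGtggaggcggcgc

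The H2afv window held 4 CCAAT boxes and 1 GC box. H3f3b also held 4 CCAAT boxes, H2afz 2 and H3f3a 1, whereas H2afy, H2afy2 and H1f0 held none. A CCAAT box was present in 33.8% of the 32851 promoter windows. TATAAA occurred in the H3f3b window alone among the members (12.4% of all windows), GGGCGG in those of H2afy, H2afz, H2afv and H3f3a (32.7%), and GTTGCC in none of the 7 (10.4%). In the windows searched, the 3 members called lower in MOF cKO did not share any of these letters: H2afv had CCAAT and GGGCGG, and H2afy2 and H1f0 had none of the 4 motifs. The windows of H2afy, H2afy2, H3f3a and H3f3b lie inside the GENCODE gene, whose annotated start is farther upstream, so they may not be the promoters used. Of their 250 bases, 250 lie in exons of H2afy2 and 214 in exons of H3f3b, and the H1f0 window lies wholly in exons of the gene Gm49544. The H1f0 window ends at 79028211, upstream of the GENCODE start of H1f0 at 79028450, so the bases next to that start were not searched. Between 14 and 35 CpG dinucleotides lay in the 7 windows, against a median of 6 over all windows.

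Genes that handle the variants were described from 6 lists. The lists were chosen with earlier results of these data known, so adjusted p-values of their genes are given as a description. In MOF cKO, H2A.Z exchange genes (subunits of the p400, SRCAP and INO80 complexes and the H2A.Z chaperone Anp32e) had 1 lower and 0 higher of 11 tested, and their median was -0.08 on the log2 scale. The gene called was Dmap1, a p400 complex subunit, at 13.9 and 12.9 CPM in control and 2.92 and 4.996 CPM in MOF cKO (log2 difference -1.75, SE 0.297, adjusted p = 0.00401, edgeR). H3.3 chaperones (Hira, Ubn1, Ubn2, Cabin1, Asf1a, Daxx and Atrx) had 0 called of 7, between -0.30 and 0.26. Replication-coupled chaperones had 1 lower of 6, Asf1b, at 35.5 and 33.6 CPM in control and 17.8 and 22.1 CPM in MOF cKO (log2 difference -0.79, SE 0.156, adjusted p = 0.00727, edgeR). Genes of histone mRNA processing had 0 called of 5. The background over all genes was 9.59% lower and 10.0% higher, as above.

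Genes of the H2AX damage response were below 0 in 10 of 10 cases in MOF cKO (median -0.47 on the log2 scale; Nbn, at -0.02, was above 0 with DESeq2, with RLE scaling and without MOF cKO replicate 2), and 2 were called lower. Over all genes the median was -0.02 and 9.59% were called lower. As the list was chosen with earlier results known, its counts are a description. Trp53bp1, which binds chromatin around breaks, was at 85.6 and 84.2 CPM in control and 43.4 and 30.5 CPM in MOF cKO (log2 difference -1.20, SE 0.173, adjusted p = 0.00213, edgeR). Prkdc, the kinase DNA-PKcs that phosphorylates H2AX, was at 45.9 and 37.0 CPM in control and 19.2 and 17.1 CPM in MOF cKO (log2 difference -1.19, SE 0.162, adjusted p = 0.0017, edgeR). H2afx itself was on the other side of 0. With library size alone, 15 of the partner and clustered histone genes were called lower in place of 5. Lower calls over all genes went from 1338 to 2743 in that setting.

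Kansl1 cKO had 0 called genes in each of the 6 lists, where edgeR called 0 of all genes. Dmap1 was at 19.3 and 23.6 CPM in P0.5 control and 10.97 and 10.1 CPM in Kansl1 cKO, the lowest fold change of the H2A.Z exchange list there as in MOF cKO (log2 difference -1.06, adjusted p = 0.18, edgeR), and did not pass the test. Between the control groups, all 6 of 6 replication-coupled chaperones were lower at P0.5, led by Asf1b (log2 difference -2.33, adjusted p = 0.000358), Chaf1a (-1.65, adjusted p = 0.000154) and Chaf1b (-1.39, adjusted p = 0.000735, edgeR). The background over all genes there was 17.6% called lower and 22.2% higher. H2A.Z exchange genes had 5 lower and 1 higher of 11, and among the H3.3 chaperones Cabin1, Ubn2 and Hira were lower and 0 of 7 higher. Proliferation markers (Mki67, Top2a, Pcna and 7 others) were called lower in 8 of 10 in this comparison, beside the lower H2afx. Suprabasal keratinocyte markers were called higher in 6 of 6, macrophage markers in 9 of 10 and melanocyte markers in 5 of 5, basal keratinocyte markers were called lower in 3 of 6, and the part of these differences in the members' values was not tested.

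**Figure D4:**
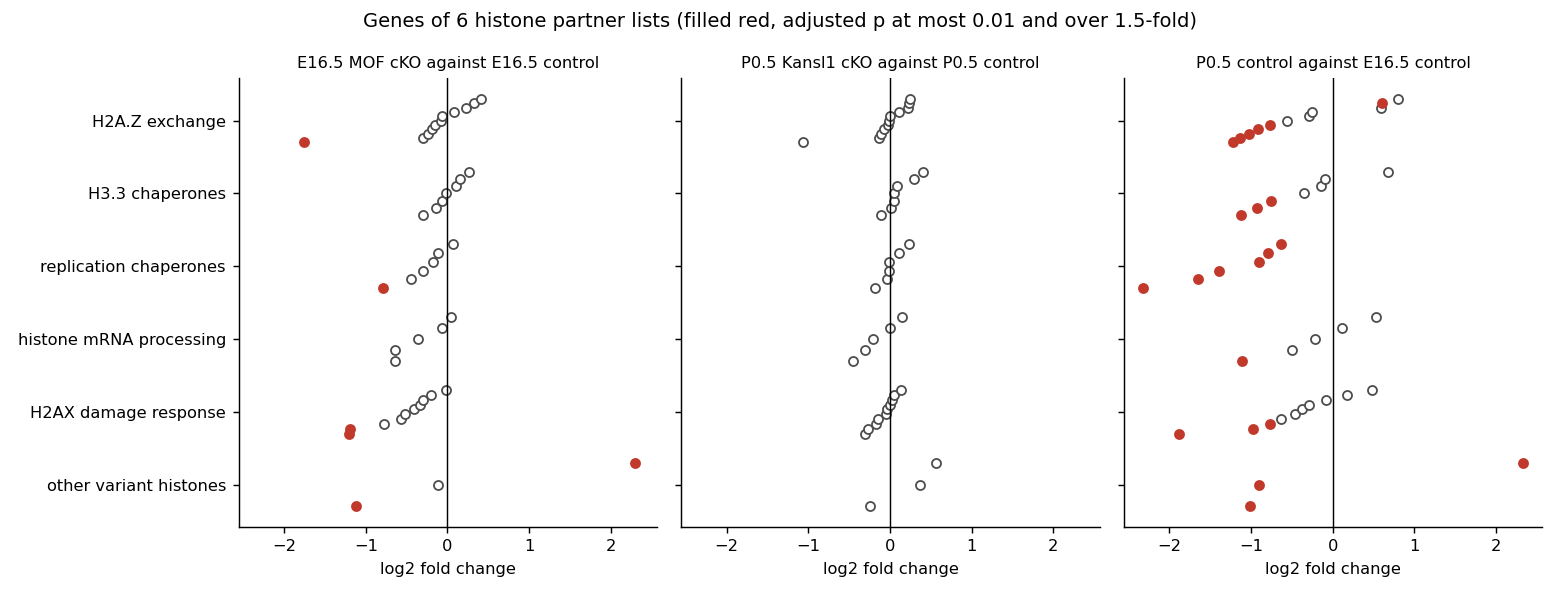
log2 fold change (x axis) of each tested gene of 6 partner lists (y axis, genes of a list spread vertically by rank) in the 3 comparisons; filled red points passed both thresholds. Genes called lower in MOF cKO were 1 of 11 for H2A.Z exchange, 0 of 7 H3.3 chaperones and 1 of 6 replication chaperones. Histone mRNA processing had 0 of 5, the H2AX damage response 2 of 10 and other variant histones 1 of 3, with 1 higher. Over all genes 9.59% were called lower and 10.0% higher. In Kansl1 cKO 0 were called, as over all genes. Between the control groups all 6 replication chaperones were lower, against 17.6% of all genes.

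The other variant histone genes with enough counts were H2afj, H1fx and Cenpa, and H2afj was high in the libraries in which H2afy2 was low. Their list, too, was chosen with earlier results known, and their adjusted p-values are a description. H2afj, an H2A variant gene, was at 26.9 and 25.6 CPM in E16.5 control and 138 and 121 CPM in MOF cKO, or 2.30 on the log2 scale (SE 0.125, adjusted p = 0.000127, edgeR), 4.92-fold higher. It was at 146 and 98.7 CPM in P0.5 control (log2 difference 2.34 from E16.5 control, adjusted p = 6.9e-05, edgeR) and at 80.0 and 129.9 CPM in Kansl1 cKO (-0.25, adjusted p = 0.715). H1fx, a linker histone gene, was at 21.5 and 22.4 CPM in E16.5 control and 10.4 and 9.76 CPM in MOF cKO, or -1.12 on the log2 scale (SE 0.164, adjusted p = 0.00222, edgeR), so both linker variants were lower. Cenpa, the centromeric H3 variant, differed little in MOF cKO (log2 difference -0.12, adjusted p = 0.425) and was lower at P0.5 than at E16.5 (-1.01, adjusted p = 0.00194, edgeR).

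Of 29 clustered histone genes tested in MOF cKO, 0 were called lower and 2 higher, against 9.59% and 10.0% of all genes. Hist1h4i was at 6.41 and 4.27 CPM in control and 14.9 and 14.8 CPM in MOF cKO (log2 difference 1.47, adjusted p = 0.00431), and Hist1h1c at 18.7 and 16.9 CPM in control and 32.3 and 27.2 CPM in MOF cKO (0.74, adjusted p = 0.00981, edgeR). Poly(A) selection removes most transcripts of the clustered genes, so these values are of polyadenylated forms only, and several of the genes have near-identical copies.

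Marker genes of differentiation and of other cells also differed in MOF cKO, where 9.59% of all genes were called lower and 10.0% higher. The 6 suprabasal keratinocyte markers (Krt1, Krt10, Ivl, Lor, Sbsn and Krtdap) summed to 3742 and 3056 CPM in E16.5 control and 8356 and 9188 CPM in MOF cKO, with 5 of 6 called higher and 0 lower. In tissue sections at E16.5 the study reported thinner spinous and granular layers and weaker Loricrin signal in MOF cKO, a different measure from RNA of sorted cells. Its single-cell RNA data at E16.5 also went the other way, with cornified envelope genes the most significantly lower category in MOF cKO suprabasal cells. Those values are within suprabasal cells, whereas the sums here are over all sorted epithelial cells. The source of the difference was not tested. The 10 proliferation markers summed to 2369 and 2062 CPM in control and 1865 and 1934 CPM in MOF cKO, with 0 of 10 called. Of 10 macrophage markers, 6 were called higher in MOF cKO, from sums of 19.2 and 42.6 CPM to 76.6 and 104 CPM, with 1 marker at 0 in E16.5 control replicate 2. Fibroblast markers summed to 842 and 1435 CPM in control and 1421 and 1981 CPM in MOF cKO, with 0 of 7 called. Melanocyte markers had 0 of 5 called and endothelial markers 1 of 5 called higher, with endothelial sums of at most 20.6 CPM. The part of these cells in the levels of the variant genes was not tested.

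Among the 4 P0.5 libraries H2afy2, H1f0 and H3f3b split by library and not by genotype, a pattern picked after the values were seen. P0.5 control replicate 1 and Kansl1 cKO replicate 2 had suprabasal sums of 81280 and 79680 CPM, against 45880 and 47840 CPM in P0.5 control replicate 2 and Kansl1 cKO replicate 1. The first 2 libraries had H2afy2 at 8.44 and 7.68 CPM and the other 2 at 13.6 and 12.8 CPM. The same 2 had more H2afj (146 and 129.9 against 98.7 and 80.0 CPM), H1f0 (313 and 273 against 203 and 231 CPM) and H3f3b (1750 and 1423 against 1117 and 1369 CPM). They also had the lowest counts on genes of the 8 libraries, 9108709 and 13712311, so depth moved with this split as well, and neither part was tested.

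**Figure D5:**
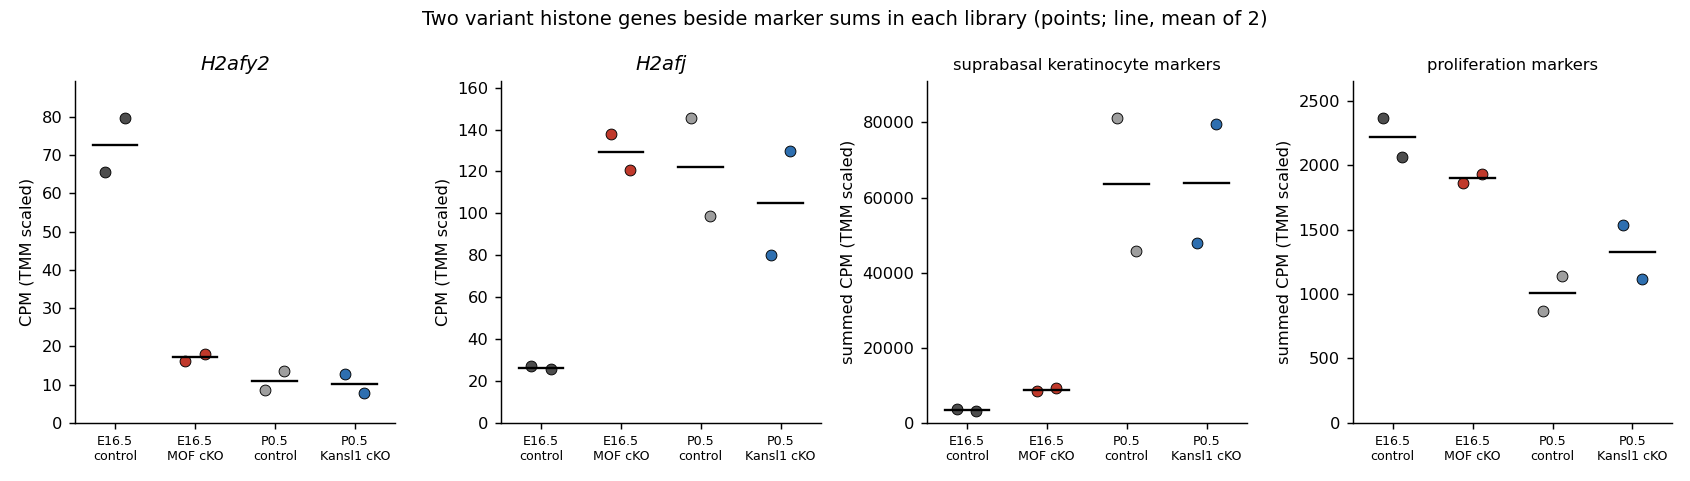
Level of H2afy2 and H2afj (CPM) and summed CPM of 6 suprabasal and 10 proliferation markers (y axes, linear from 0) in the 2 libraries of each group (x axis); points are libraries and lines are means. H2afj was at 26.9 and 25.6 CPM in E16.5 control and at 80.0 CPM or more in the other 6 libraries, where H2afy2 was at most 18.0 CPM.

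By the root-mean-square difference of centred log2 CPM over the 8 libraries, the genes most like H2afy2 among 12528 candidates were Samd14 (0.291), Lmtk3 (0.305) and Adamtsl1 (0.309). Samd14 was at 10.2 and 10.6 CPM in E16.5 control, 2.64 and 4.29 CPM in MOF cKO, 1.96 and 2.92 CPM in P0.5 control and 2.18 and 1.55 CPM in Kansl1 cKO. Adamtsl1 was at 31.5 and 28.5 CPM in E16.5 control and never above 10.6 CPM in the 6 remaining ones. No member came near these values: the closest were H2afx (0.913, rank 2270) and H1f0 (0.914, rank 2283), and H2afy ranked 4684.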

How the data were processed

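Bulk RNA sequencing of 8 libraries was analysed, 2 in each of 4 groups given by the labels. The authors prepared directional libraries with the NEBNext Ultra kit, sequenced paired 150-base reads, aligned them to mm10 and deposited raw counts per gene from HTSeq, without normalization. The aligner is HISAT2 in the study's methods and TopHat2 in the submitters' processing notes, and the annotation and strand setting are not given in the sources used here. Between 21.1% and 26.0% of the entries of a library named no gene and were left out.

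The analysis used edgeR 4.0.16 under R 4.3.3 (filterByExpr, TMM, quasi-likelihood test, Benjamini-Hochberg adjustment over all genes tested), and DESeq2 1.42.0 as an alternative. Each comparison was fitted on its own 4 libraries, and a call required an adjusted p of at most 0.01 with more than 1.5-fold change, which the study also used. CPM were scaled over all 8 libraries, and RPKM used merged exon lengths of GENCODE M21. The likeness to H2afy2 used a pseudocount of 0.1 CPM. With 2 libraries a group the number of libraries limits the precision. The study reports 2 pairs of samples in each experiment, with littermate controls. Which libraries were paired, or whether animals were shared between libraries, is not named. The main fits ignored pairing, and a replicate block was tried as an alternative. The p-values measure the spread between these libraries, with variance estimates that edgeR shares among genes. Replicates differed by more than sampling noise in all 4 groups, so no library was counted as a duplicate.

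The members and gene lists were chosen with earlier results of these data known. The genes named were the 8 members, Kat8, Kansl1, Xist and Ddx3y, up to 3 called genes per direction, list and comparison whose libraries did not overlap, and the 3 genes most like H2afy2. Cenpa in MOF cKO and Dmap1 in Kansl1 cKO were named after their values were seen. Symbols not listed in the files were Srcap, Supt16h, H2afb2, H2afb3, H3f3c and Adgre1.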

Additional observations from a re-analysis of the deposited data

How the results depend on the processing

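The 2 libraries a group limit the precision. Of 312 values of the 8 members under other settings, 281 kept their direction and their side of the thresholds, 9 were no longer called, 15 became called and 7 changed sign. The values of H2afy2, given as a description because they chose the members, ran from -2.39 to -1.93 on the log2 scale in MOF cKO and from -3.02 to -2.31 between the control groups. In MOF cKO the members called lower were 1 with a fold change over 2, where lower calls over all 13956 genes went from 1338 to 954. H3f3a changed sign with library size alone (-0.12). Partner and clustered histone genes called higher in MOF cKO were 3. They became 5 with DESeq2, without the filter on low counts and with the replicate block, and 6 at an adjusted p of 0.05. Higher calls over all genes went from 1395 to 1781, 1837, 1903 and 1943 in these settings, in the same order. Those called lower among the partner and clustered genes became 15 with library size alone, where lower calls over all genes went from 1338 to 2743. The cause of these shifts was not tested.

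In Kansl1 cKO no setting called a member. Leave-one-out ranges that crossed 0 there were -0.6 to 0.22 for H2afy2, -0.4 to 0.29 for H3f3b, -0.38 to 0.29 for H1f0 and -0.65 to 0.06 for H2afj. H2afy2 changed sign without P0.5 control replicate 2 (0.22) and Kansl1 cKO replicate 2 (0.16), H1f0 and H2afj without P0.5 control replicate 1 (0.29 and 0.06) and Kansl1 cKO replicate 1 (0.02 and 0.02), and H3f3b without P0.5 control replicate 1 (0.29). Between the control groups, members called lower were 5 with library size alone. They were 4 without the filter on low counts, at an adjusted p of 0.05 and in one fit over all 8 libraries. Lower calls over all genes were 2436 of 13859 in the main fit and 4340 with library size alone. They were 3058 of 17612 without the filter, 3350 at an adjusted p of 0.05 and 2997 of 14565 in the 8-library fit. Members called higher were 0 with library size alone, upper-quartile scaling, a fold change over 2 and the fit over all 8 libraries. Higher calls over all genes, 3070 in the main fit, were 2089, 2790, 2501 and 2854 there, in the same order. Leave-one-out values of H2afy ran from -0.09 to 0.01, the latter without E16.5 control replicate 2. A lone library in a group was assumed to vary like the other group.

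With longest transcripts as lengths, H2afy2 made up 45.2%, 20.3%, 12.2% and 12.4% of its pair in E16.5 control, MOF cKO, P0.5 control and Kansl1 cKO, H2afv 9.98%, 5.16%, 11.7% and 9.99%, and H3f3b 60.1% in E16.5 control and 52.4% in Kansl1 cKO.

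The labels do not say that replicate numbers mark litters. Deviations of same-numbered libraries correlated at 0.25 in the MOF and -0.25 in the Kansl1 comparison. The replicate block raised the genes called in MOF cKO from 1338 lower and 1395 higher to 2263 and 1903 and left the members called at 3 lower and 0 higher. In Kansl1 cKO the block called 0 members, as did the crossed pairing added after seeing the data, with 1 gene lower and 0 higher called over all genes. Over all genes in Kansl1 cKO, calls were 117 lower and 73 higher with every gene of at least 1 count, and up to 181 and 77 without Kansl1 cKO replicate 2.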
